A study of Rattus norvegicus with 16 samples.

Results

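The 3455 regions described here are CpG-dense windows of the rat genome that were methylated at 60 to 80% in the amygdala of young pups. A window was 1000 bp of a chromosome from 1 to 20 and had at least 3 cytosines read 10 or more times in all 10 libraries used. Windows were kept when at least 17 distinct CpGs were listed in them and when the mean level in the 4 libraries of high-fat pups lay from 60 up to 80%. They were thus chosen by their level in the high-fat libraries. They made up 4.01% of the 86065 windows that met the read and site minimums. Because those high-fat levels chose the windows, they are given as a description and nothing is tested on them.

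The amygdala of female Long-Evans rats was studied by reduced representation bisulfite sequencing, in which DNA is cut at CCGG so that mostly CpG-rich fragments are read. Control P7 pups (day 7, n = 4 libraries) and control P90 adults (day 90, n = 2) came from dams on a control diet. High-fat P7 pups (n = 4) came from dams that ate a high-fat diet for 4 weeks before mating and through gestation and lactation, and were themselves given no such diet. The labels give no transgene, drug or other agent for any group, and offspring kept to day 90 were weaned to a control diet. Whether each library is a separate litter is not stated, and p-values measure only how these libraries spread. The tissue was microdissected at different stereotaxic levels at the 2 ages, so age and level of dissection cannot be told apart. Another 6 libraries of the series were not used here.

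In mammals most CpGs are methylated on nearly every copy, whereas dense clusters of CpGs at gene starts, the CpG islands, are mostly free of methylation. A dense window at an intermediate level can mix methylated and unmethylated CpGs on the same DNA, methylated and unmethylated alleles, or methylated and unmethylated cells. Levels taken from pooled reads of a tissue do not separate these, and a changed share of a cell type cannot be told apart from a change within cells.

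No genome or annotation of the files' build, Rnor_6.0, was used here, so genes could be named only where the spacing of CpGs in a RefSeq promoter sequence (build GRCr8) matched the listed CpGs of a window. Of 33469 promoter sequences 3372 were placed in this way, and 51 of them lay in 50 of the 3455 windows. Among the 348 genes of lists covering imprinted genes, methylation enzymes, the stress axis, glutamate and GABA receptors, ion channels, neuronal and glial genes, clustered protocadherins and homeobox genes, 64 were placed and 0 lay in these windows. The cell type of the tissue could therefore not be checked by marker genes in them.

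The 250 bases before the start of 3 of the placed genes are shown because they hold tested cytosines near full methylation. Gpr153 encodes an orphan G protein-coupled receptor, Tmem222 a membrane protein, and Rcor3 a corepressor of the CoREST family. The sequences are from RefSeq, build GRCr8, read 5′ to 3′ on the strand of the gene, with each CCGG in capitals. CCGG was searched as these 4 letters, which read the same on both strands, and occurs in the 250 bases before the start in 46.2% of the 33469 promoter sequences.
Gpr153: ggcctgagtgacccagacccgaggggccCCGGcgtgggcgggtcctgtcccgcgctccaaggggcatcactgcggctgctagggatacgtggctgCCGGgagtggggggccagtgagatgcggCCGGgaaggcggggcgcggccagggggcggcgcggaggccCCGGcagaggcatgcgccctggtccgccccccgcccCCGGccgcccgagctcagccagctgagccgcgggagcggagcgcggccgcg
Tmem222: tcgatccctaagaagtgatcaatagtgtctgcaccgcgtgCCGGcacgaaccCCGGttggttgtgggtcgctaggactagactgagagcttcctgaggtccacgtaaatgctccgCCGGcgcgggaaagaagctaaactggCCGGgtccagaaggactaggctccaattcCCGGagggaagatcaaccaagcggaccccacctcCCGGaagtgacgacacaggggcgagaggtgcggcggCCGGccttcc
Rcor3: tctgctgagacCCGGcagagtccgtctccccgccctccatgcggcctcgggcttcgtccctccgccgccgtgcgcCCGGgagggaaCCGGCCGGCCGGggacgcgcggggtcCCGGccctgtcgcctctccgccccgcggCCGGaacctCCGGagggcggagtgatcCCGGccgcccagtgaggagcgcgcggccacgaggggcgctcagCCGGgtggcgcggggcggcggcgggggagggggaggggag

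In the Gpr153 promoter the tested cytosines lay in the first CCGG, at the CpG starting at base 30 of the printed sequence, and in the next, at base 97. They were methylated at 97.2% ± 3.67 and 96.7% ± 2.43 (SD, n = 4 control P7 libraries). The tested CCGG cytosines of Tmem222, at bases 54 and 117, stood at 96.6% ± 1.74 and 98.1% ± 2.33. Those of Rcor3, at bases 13 and 77, stood at 98% ± 2.35 and 98.5% ± 1.71. Other listed cytosines of the same promoters, which missed the read minimum in some library, were mostly unmethylated. The Gpr153 promoter had 35 such sites with 1073 reads over the control P7 libraries, of which 3.54% were methylated. For Tmem222, 7.52% of 266 reads at 17 sites were methylated, and for Rcor3, 4.09% of 342 reads at 20 sites. Each pair was thus nearly fully methylated inside a promoter whose other listed cytosines were low. The windows themselves stood lower, at 73.96, 68.4 and 58.9% at P7, because they also held tested cytosines downstream of the start, such as 1 at 88 bp of Gpr153 (35.4%), 1 at 329 bp of Tmem222 (35.8%) and 1 at 166 bp of Rcor3 (14.5%).

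Low levels at the other listed cytosines were common among the 51 promoters, but a pair near full methylation inside the promoter was not counted for each. In 37 of them the other listed cytosines were methylated at under 10% in control P7 libraries, and the median over the 51 was 3.59%. Of 54 distinct tested cytosines inside 27 promoters, 51 were in CCGG, and 44 of these belonged to a pair made of a minus-strand cytosine and a plus-strand cytosine 61 to 67 bp after it. The CCGG cytosines of such pairs had a median of 95.3%, against 31.3% for the other tested CCGG cytosines. The latter were few and ran from 12.8% in Ddx49 to 97.8% in Bola3. Paired cytosines were not always high, and 27 of these 44 were above 90% at P7. The low cytosines named above at 88 bp of Gpr153 and at 329 bp of Tmem222 also belonged to such pairs. A window of 41 of the 51 promoters (80.4%) held such a pair, and in 36 of those 41 fewer than 3 cytosines were left without it. Every site in the 10 files used has at least 1 methylated read, so a fully unmethylated cytosine is not listed and low cytosines could seldom be tested in all 10 libraries.

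Across all 3455 windows, the pairs were compared with 6 other distance classes between 40 and 88 bp and with the reverse strand order. Both cytosines of such a pair were above 90% in 147 of 1492 pairs (9.85%), against 1.83 to 3.57% in the other 6 distance classes of the same order. In the opposite order, plus then minus, the share at 61 to 67 bp was 2.53%. Where both strands of the first CpG were read, the paired minus-strand cytosine stood on average 5.96 points above the plus-strand cytosine of the same CpG, over 721 CpGs. It was more than 10 points above it in 27.0% of these CpGs, compared with 9.85 to 13.4% at the other distances. In the reverse order at 61 to 67 bp, the first cytosine, on the plus strand, stood on average 5.09 points below the minus-strand cytosine of its own CpG (a mean difference of -5.09 points over 771 CpGs), against mean differences of -1.18 to 0.26 points at the other distances. The excess of minus-strand over plus-strand cytosines at the first CpG was thus seen in both orders at this distance. Both orders compare the strands of the first CpG and can hold the same CpGs, so they are not separate observations of it. The high share above 90% was seen in the minus then plus order. The pattern was not particular to these windows, since over all cytosines the mean excess at 61 to 67 bp was 8.09 points. What produces it was not tested.

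**Figure D1:**
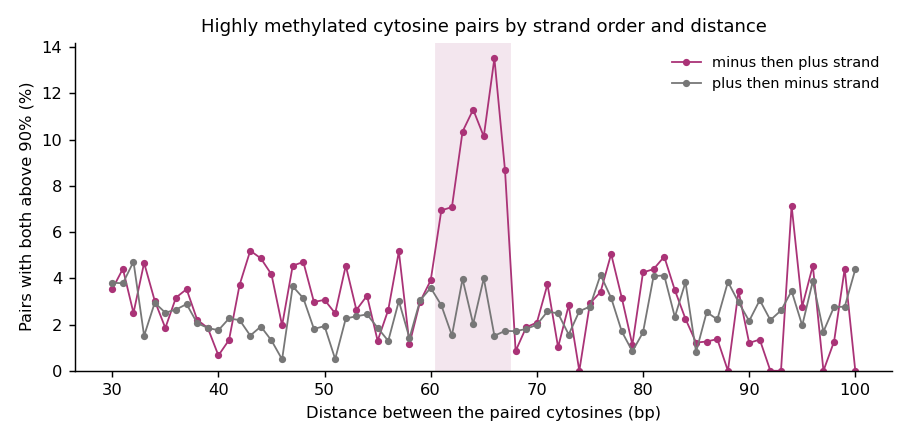
Share of cytosine pairs in the CpG-dense windows with both cytosines above 90% methylation in control P7 libraries (vertical axis, percent) by the distance between them (horizontal axis, bp), for a minus-strand cytosine followed by a plus-strand one and for the reverse order. Between 61 and 67 bp (shaded) the minus then plus pairs stand above every distance class around them, at 9.85% over the shaded range, and the reverse order does not.

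Such paired cytosines occurred in 973 of the 3455 windows (28.2%) and made up 9.92% of their 28746 tested cytosines, against 6.04% over all windows. Most windows did not owe their level to them. When paired cytosines were left out, 3253 windows kept at least 3 cytosines, of which 3147 stayed from 60 to 80%, 73 fell under 60% and 33 reached 80% or more. The other 202 windows had too few cytosines left. The promoters above are mostly in that last set, so the windows that carry a named gene start are those in which the level rests most on paired cytosines.

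The windows held a median of 22 listed CpGs, from 17 to 121, and a median of 7 tested cytosines, from 3 to 60. Total reads per library ranged from 22087054 in the second control P7 library to 63677193 in the first high-fat library, and the median reads per window from 154 to 422 in the same libraries. The mean over the 3455 windows was 73.6, 70.2, 71.8 and 72.2% in the 4 control P7 libraries. It was 73.3, 72.3, 68.5 and 71.4% in the high-fat P7 libraries and 71.5 and 71.8% in the control P90 libraries. The third high-fat library was the lowest of the 10 and the second control P7 library the next lowest, and the 3 groups overlapped. The group means were 72.0% ± 1.38 (SD, n = 4), 71.4% ± 2.09 (n = 4) and 71.7% ± 0.235 (n = 2), so the mean differed between groups by less than the spread between P7 libraries.

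The third high-fat library was also the lowest in the 3 neighbouring classes of windows. Dense windows at 40 to 60% (2249 windows) averaged 50.1% ± 1.87 in control P7 and 53.6% ± 0.392 in control P90, where both libraries were above all 4 of P7. Dense windows at 80% or more (12518) averaged 90.7% ± 0.330 and 90.2% ± 0.125. Windows at 60 to 80% with fewer than 17 CpGs (11742) averaged 72.6% ± 1.38 and 72.3% ± 0.219, much like the CpG-dense windows. These classes were also cut by the high-fat P7 level, so their differences by age are a description.

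**Figure D2:**
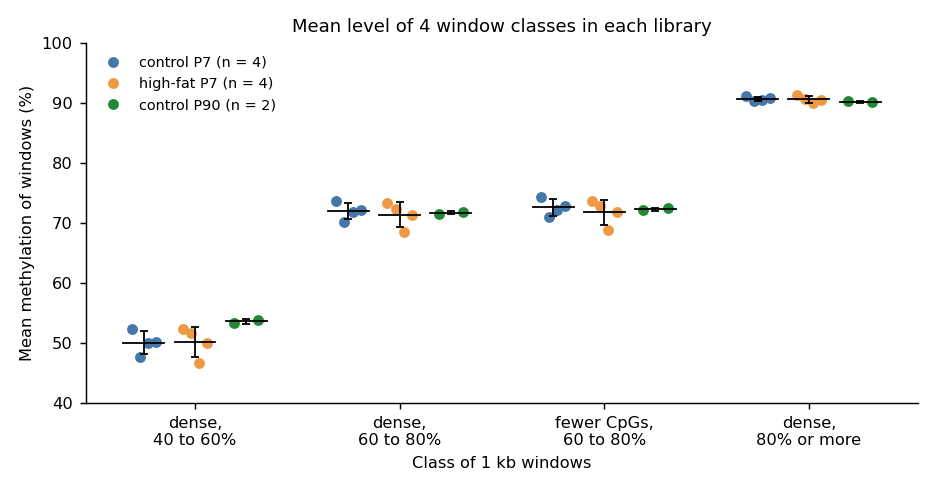
Mean methylation (percent) of 4 classes of 1 kb windows in each library, with 1 point per library, a line at the group mean and bars of 1 SD. In the dense 60 to 80% class the 3 groups overlap, while in the dense 40 to 60% class both control P90 libraries lie above the 4 control P7 libraries.

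Single windows varied more than the mean. The SD between the 4 control P7 libraries had a median of 3.94 points per window, against 3.00 points over all windows. The neighbouring classes had 1.94 points (dense, 80% or more), 4.49 points (dense, 40 to 60%) and 4.67 points (60 to 80%, fewer CpGs). In control P7 libraries 73.6 to 78.2% of the windows lay from 60 to 80%, and in control P90 libraries 63.2 and 66.0%. The P7 libraries share their age with those that chose the windows, so this wider spread at P90 is a description only.

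Within a window the CpGs often differed. By their level in the high-fat libraries, 44.7% of the 28746 tested cytosines were themselves at 60 to 80%, 16.1% at 40 to 60%, 22.3% at 80 to 90% and 12.1% above 90%. At 20 to 40% stood 3.82% and under 20% 0.831%. The range between the lowest and the highest cytosine of a window was under 20 points in 492 windows (14.2%) and 60 points or more in 530 (15.3%). CpG cytosines read on both strands (4543 CpGs) differed between strands by a median of 4.91 points, and 5.44% of them by over 20 points, against 4.76% over all windows.

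The extremes show both forms. The window with the most even cytosines, chr7:26750001-26751000, had 3 cytosines between 69.1 and 69.2% in the control P7 mean. At chr18:68432001-68433000 the 3 cytosines ran from 71.3 to 73.0%, and at chr12:2601001-2602000 from 65.1 to 66.8%. At the other end, chr19:54108001-54109000 held 3 cytosines that ran from 4.44 to 100%, 2 of them paired as above. The window chr1:274767001-274768000 ran from 3.62 to 97.9%, also with 2 paired cytosines, and the placed start of Adra2a, the gene of the alpha-2A adrenergic receptor, lay 718 bp outside it. The window chr10:16633001-16634000 ran from 4.91 to 97.2%, again with 2 paired cytosines. The first 3 windows, at 69.1, 72.0 and 66.4% in control P7, thus held cytosines of nearly equal mean level. Their SDs between control P7 libraries were 5.25, 8.85 and 9.59 points. The last 3, at 58.2, 55.7 and 62.5%, held a mixture of near 0 and near 100%.

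The windows with the most CpGs were neighbours on chromosome 7 and a window on chromosome 16. The window chr7:99525001-99526000 held 121 CpGs and the adjacent chr7:99524001-99525000 held 97, and both were high at P7, at 83.3% ± 3.53 and 82.9% ± 3.69 (SD, n = 4). Their cytosines ran from 71.9 to 93.8% and from 69 to 100%. The window chr16:31909001-31910000, with 114 CpGs, stood at 63.4% ± 4.08 with cytosines from 16.0 to 98.2%. None of these 3 passed the age test, with adjusted p of 0.0945, 0.166 and 0.666.

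The windows were spread over all 20 autosomes, from 3.17% of the tested windows of chromosome 4 to 5.53% of those of chromosome 20. In 59 runs of adjacent windows of the kind lay 119 of them, but 2342 windows had no neighbour that was tested. The longest run, 3 windows at chr13:48520001-48523000, averaged 69.4% at P7 and 65.4% at P90. Where the window before was tested (607 cases), with any number of CpGs, it stood at 80% or more in 46.1% and at 60 to 80% in 24.2%. Where the window after was tested (642 cases) these shares were 51.1 and 26.2%. Under 20% stood 6.26 and 3.89% of these neighbours. Only neighbours that met the read and site minimums are counted, and unmethylated DNA seldom met them.

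The bounds of the set fall on a continuum. Just inside the lower bound, chr9:11067001-11068000 averaged 60.0084% in the high-fat libraries, and just outside it chr6:109562001-109563000 averaged 59.9954%. Just inside the upper bound chr10:103281001-103282000 averaged 79.9959%, and just outside it chr13:35531001-35532000 averaged 80.0055%. There were 456 windows with exactly 17 CpGs and 522 windows of the same level with 16, whose median control P7 levels were 73.2 and 73.3%.

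The change with age was tested between control P7 and control P90 libraries, which the choice of windows did not use. That choice used high-fat P7 libraries, which share their age with the control P7 side, so part of any difference may be set by it. By a logistic fit of methylated and unmethylated reads per window, with dispersion moderated by limma and Benjamini-Hochberg adjustment over all 86065 windows, 287 of the 3455 windows (8.31%) were higher at P90 and 333 (9.64%) were lower. Over all windows 7.68% were called higher, 5.23% lower and 12.9% either way. The share called higher was near that background, and the share called lower was above it. The dense windows held more reads, a median of 227 per window in control P7 libraries against 150 over all windows. Their median level in control P7 was 72.7% against 86.1%, so these shares are not taken at like depth or level. The median difference over the 3455 windows was 0.34 points, beside 0.52 points over all windows. Windows that rose had a median of 70.8% at P7 and 83.6% at P90. Windows that fell had a median of 74.6% at P7 and 58.3% at P90.

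Changes were large in few windows. Of the called windows, 210 rose and 287 fell by at least 10 points, and 13 rose and 60 fell by at least 20. Of those that rose, 202 reached a mean of 80% or more at P90, and of those that fell, 189 went under 60%. Both P90 libraries were above all 4 control P7 libraries in 279 of the 287, and below all 4 in 316 of the 333. Within the windows that rose, 91.1% of 2999 tested cytosines moved up, and within those that fell, 93.2% of 3149 moved down. These shares follow in part from the calls, which used the same reads. All tested cytosines moved the same way in 141 of the 287 windows (49.1%) and in 206 of the 333 (61.9%). The calls lean on the spread shared over all windows, worth a median of 34.6 degrees of freedom beside 4 of each window's own. Tested on its own spread alone, no window passed (0 higher and 0 lower, smallest adjusted p = 0.172), though 729 of the 3455 had an unadjusted p under 0.05 in that test, and limma on the log2 ratio of counts called 37 higher and 42 lower.

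**Figure D3:**
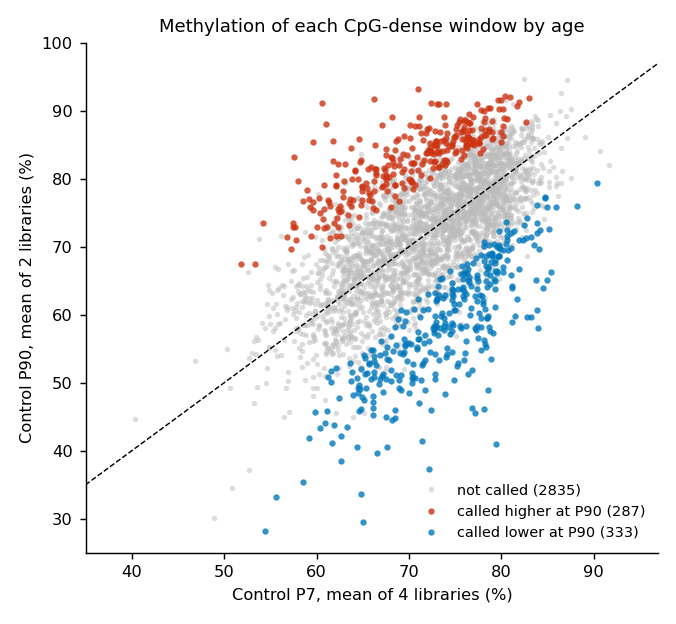
Methylation of each of the 3455 CpG-dense windows in control P7 libraries (horizontal axis, mean of 4, percent) and control P90 libraries (vertical axis, mean of 2, percent). The 287 windows called higher lie above the dashed line of equality, mostly ending above 80%, and the 333 called lower spread further below it.

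The neighbouring classes differed in direction, but they were cut by level in the high-fat P7 libraries, which share their age with the control P7 side. Part of that difference is thus set by the choice of classes. Of dense windows at 40 to 60%, 17.4% were higher at P90 and 4.94% lower, with a median difference of 2.99 points. Of dense windows at 80% or more, 1.78% were higher and 5.96% lower. Their median level in control P7 was 91.7%, which leaves little room to rise. Windows at 60 to 80% with fewer CpGs had 7.23% higher and 8.70% lower, shares near those of the dense windows of that level. They held fewer reads, with a median of 127 per window in control P7 libraries against 227. Their median absolute difference was 5.48 points, against 4.90 points in the dense windows, so like shares called do not show like change. The differences between classes themselves were not tested.

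The windows with the smallest p in each direction show what a called change looked like. At chr2:185854001-185855000 (27 CpGs, 12 tested cytosines) the control P7 libraries stood at 63.8, 57.1, 58.5 and 63.1%, the high-fat P7 libraries at 61.3, 59.0, 54.6 and 65.5%, and the control P90 libraries at 90.1 and 92.0%. All 8 P7 libraries lay below both P90 libraries by a wide gap. The rise was 30.5 points, from 60.6% ± 3.33 (SD, n = 4) to 91.1% ± 1.33 (n = 2), with an adjusted p of 8.95e-10, and 11 of the 12 cytosines rose. Of the 12, 5 were paired as above, and without them the rise was 45.7 points.

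The window chr6:7323001-7324000 had 32 CpGs and 19 tested cytosines, all of which rose. Its control P7 libraries stood at 72.7, 70.2, 72.2 and 69.4% and its P90 libraries at 88.6 and 86.9%. Both P90 libraries were above every P7 library of either diet, the highest of which was 72.7%. The rise was 16.7 points with an adjusted p of 8.96e-07.

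The window chr9:14525001-14526000 had only 4 tested cytosines, which all rose. Its control P7 libraries stood at 69.8, 71.9, 60.2 and 63.2% and its P90 libraries at 92.3 and 90.9%. The spread among P7 libraries was wider here, with replicates 3 and 4 low, but the ages did not overlap. The rise was 25.4 points with an adjusted p of 9.23e-07. The other 5 windows of this kind, at chr1:274581001-274582000, chr10:108289001-108290000, chr12:51501001-51502000, chr1:90663001-90664000 and chr5:127435001-127436000, rose by 25.6, 27.0, 23.7, 15.3 and 21.6 points. The first of them rose by 15.5 points with reads thinned to 10 per cytosine.

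Among windows that fell, chr1:188697001-188698000 (18 CpGs, 11 tested cytosines) had control P7 levels of 75.2, 72.8, 71.3 and 69.3% and P90 levels of 35.2 and 39.4%. Its high-fat P7 libraries stood at 74.1, 58.8, 61.1 and 63.0%, so 3 of them were below every control P7 library, and all 4 above both P90 libraries. The fall was from 72.2% ± 2.48 (n = 4) to 37.3% ± 2.97 (n = 2), with an adjusted p of 6.47e-09 and all 11 cytosines lower.

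At chr2:188002001-188003000 (28 CpGs, 13 tested cytosines) the control P7 libraries stood at 69.8, 61.9, 65.3 and 62.1% and the P90 libraries at 36.4 and 30.9%. The high-fat P7 libraries, at 67.8, 71.8, 66.9 and 74.5%, overlapped the control P7 libraries. The level fell by 31.1 points, in all 13 cytosines, with an adjusted p of 1.12e-08.

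At chr3:60206001-60207000 the control P7 libraries lay close together at 71.2, 70.4, 72.6 and 69.98%, and the P90 libraries at 46.3 and 47.8%. The high-fat P7 libraries ran from 68.4 to 73.9%. All 15 tested cytosines fell, and the window fell by 24.0 points with an adjusted p of 2.47e-07. The remaining windows, chr20:14508001-14509000, chr17:6649001-6650000, chr10:107904001-107905000, chr1:123618001-123619000 and chr7:125887001-125888000, changed by -31.7, -29.7, -30.01, -23.5 and -26.2 points. In chr1:123618001-123619000 the high-fat P7 libraries split, with 83.8 and 84.8% in replicates 1 and 4 and 61.5 and 63.3% in replicates 2 and 3, while the control P7 libraries ran from 80.8 to 85%. No placed gene start lay within 10000 bp of any of these 16 windows.

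**Figure D4:**
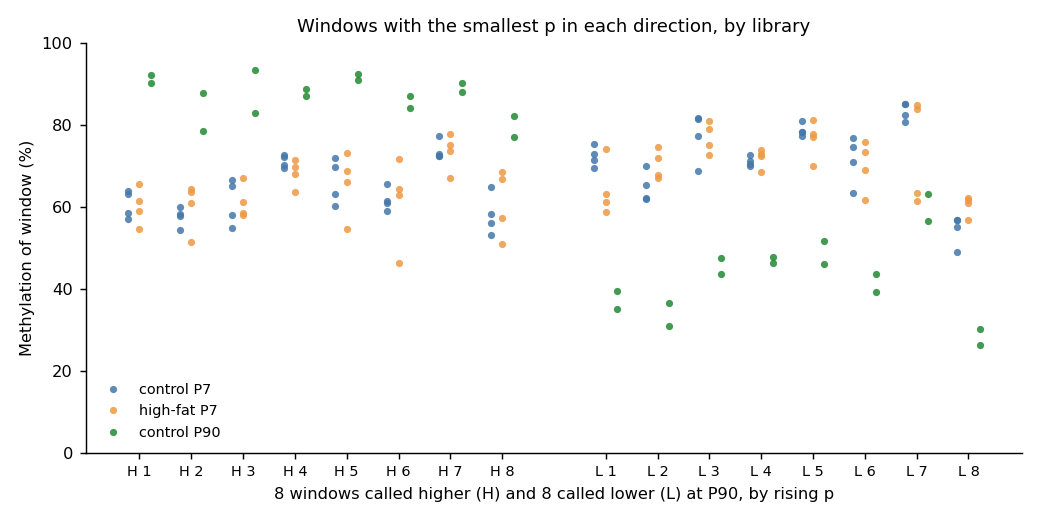
Methylation (percent) in each library of the 8 windows with the smallest p called higher (H 1 to H 8) and the 8 called lower (L 1 to L 8) at P90, in order of rising p, with 1 point per library. In all 16 windows both control P90 libraries lie outside the range of the 4 control P7 libraries.

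Shares called higher and lower were also counted by how evenly the cytosines of a window were methylated. The range between its lowest and highest cytosine was taken from the high-fat libraries, so it did not use the libraries of the test, though these share their age with the control P7 side. In the 492 windows with a range under 20 points, 25 (5.08%) were higher at P90 and 65 (13.2%) lower. With a range of 20 to 40 points 97 (6.98%) were higher and 156 (11.2%) lower of 1389, and with 40 to 60 points 118 (11.3%) and 94 (9.0%) of 1044. In the 530 windows with a range of 60 points or more, 47 (8.87%) were higher and 18 (3.4%) lower. More windows were called lower than higher in the narrowest range class and more higher than lower in the widest, while the share called higher was greatest at 40 to 60 points. The differences between range classes were not tested. The median difference moved from -1.84 points in the most even windows to 1.43 points in the most mixed.

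The windows with the narrowest range had a median of 5 cytosines and a level of 74.3%, and those with the widest 8 cytosines and 67%, so the counts were also taken at like number and level. In windows with 6 to 12 cytosines, 12 of 173 were higher and 39 lower at a range under 20 points, against 23 of 239 higher and 11 lower at 60 points or more. In windows at 70 to 80%, 19 of 351 were higher and 44 lower at the narrowest range, and 18 of 197 higher and 7 lower at the widest. In windows at 60 to 70%, the same counts were 6 and 21 of 141, and 29 and 11 of 333, with 41 higher and 41 lower of 412 at 20 to 40 points. With paired cytosines left out they were 32 and 73 of 543, and 38 and 15 of 378. Windows of fewer CpGs at the same level had a like order, at 240 higher and 503 lower of 4161 for the narrowest range and 50 and 13 of 512 for the widest.

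**Figure D5:**
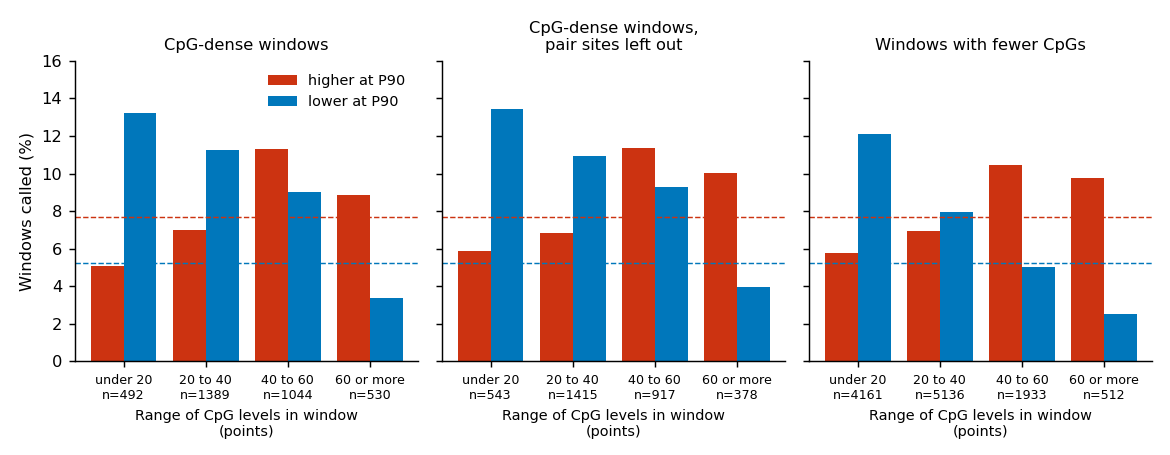
Share of windows called higher or lower at P90 (percent) by the range between the lowest and highest cytosine of the window (points), for CpG-dense windows, the same windows without paired cytosines, and windows with fewer than 17 CpGs at 60 to 80%. Dashed lines mark the shares over all windows, 7.68% higher and 5.23% lower. Calls lower at P90 outnumber calls higher under 20 points, and the order is turned at 60 points or more.

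Single cytosines were grouped by their level in the high-fat libraries, which share their age with the control P7 side, so part of any difference is set by the grouping and the values are a description. In the dense windows the median difference from control P7 to P90 was 4.02 points under 20%, 5.03 points at 20 to 40%, where 65.3% of 1097 cytosines were higher, and 2.35 points at 40 to 60%. It was -0.30 points at 60 to 80%, -0.47 points at 80 to 90% and 0.06 points above 90%. Over cytosines of all windows the medians were 5.84 points under 20%, 7.54 points at 20 to 40% and 0.0042 points at 60 to 80%. Cytosines of a window share reads, and no test was made on them.

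Of the 51 placed promoters, 1 lay in a window called for age, the window chr1:127337001-127338000 of Aldh1a3, which encodes an enzyme that makes retinoic acid. Its control P7 libraries stood at 65.8, 62.9, 61.8 and 66.2%, the high-fat P7 libraries at 72.1, 66.7, 69.1 and 67% and the control P90 libraries at 86.6 and 75.6%. Both P90 libraries were above all P7 libraries. The rise was 16.9 points, from 64.2% ± 2.15 (SD, n = 4) to 81.1% ± 7.74 (n = 2), with an adjusted p of 0.0105. It rested on 4 cytosines from 674 to 833 bp downstream of the start. The cytosine at 738 bp stood at 46.7% ± 6.96 at P7 and at 80 and 77.1% at P90, while that at 833 bp stood at 45.8% ± 6.45 and at 85.3 and 52.8%, so the P90 libraries differed at the latter. Of the 4 cytosines 2 were paired as above, and too few were left to test the window without them.

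The other promoter windows did not pass the test. The window chr5:117583001-117584000 holds the start of Usp1, a deubiquitinase of DNA repair, with 69.9, 64.6, 66.4 and 56.8% in control P7 and 80.5 and 74% in P90 libraries. The high-fat P7 libraries stood at 74.7, 72.5, 71.1 and 71%. Both control P90 libraries were above all control P7 libraries, while the highest high-fat library lay above the lower P90 library. The difference between control groups was 12.8 points with an adjusted p of 0.126. Its CCGG cytosine at the start itself stood at 31.3% ± 9.86 at P7 and at 57.1 and 43.4% at P90.

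Rhob encodes a small GTPase of endosomes and the cytoskeleton. Its window chr6:33691001-33692000 stood at 62.6% ± 3.21 and 72.9% ± 6.57, with an adjusted p of 0.178. Of its 3 cytosines, a pair stood at 89.7 and 95.3% at P7 and the third at 16.0%.

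Armc9, a gene of ciliary basal bodies, had the largest fall of the placed promoters. The 3 cytosines of its window chr9:93172001-93173000 lay 287 to 317 bp before the start and belonged to no pair. The window stood at 79.7% ± 3.99 at P7 and 65.2% ± 6.11 at P90, a difference of -14.5 points with an adjusted p of 0.103.

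The window chr9:12634001-12635000 of Dazl, an RNA-binding protein of germ cells whose promoter is known to be methylated in body tissues, was the best covered of those named here, with 16 tested cytosines downstream of the start. It stood at 73.3% ± 3.25 at P7 and 79.2% ± 1.84 at P90, with an adjusted p of 0.273. The other listed cytosines of its promoter were methylated in 96.1% of 178 reads, unlike those of Gpr153, Tmem222 and Rcor3. Its cytosines did not move together. Those at 190 and 206 bp stood at 8.36% ± 4.63 and 8.51% ± 4.93 at P7 and at 26.3% ± 9.92 and 24.6% ± 12.4 at P90. The cytosine at 296 bp, which belonged to a pair as above, went the other way, from 85.7% ± 3.70 to 38.9% ± 5.56. Those at 415 and 441 bp on the opposite strand went from 62.6% ± 5.61 and 63.3% ± 4.94 to 98.5% ± 2.08 and 93.4% ± 5.24. On the strand of the gene the CpG at 415 bp stood at 97.8% ± 2.26 at P7 and 92.7% ± 0.788 at P90, so it rose on the opposite strand only. Single cytosines were not tested.

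The diet of the dams at P7 is given as a description, because the high-fat libraries chose the windows. All 4 high-fat libraries lay above all 4 control libraries in 40 windows (1.16%), where the share over all windows was 1.09%, and below them in 78 (2.26%), where it was 1.69%. Where the high-fat libraries were higher, the 3 largest differences came from windows in which the control libraries disagreed. At chr1:11915001-11916000 the control P7 libraries stood at 16.6, 75, 31.7 and 38.3%, the high-fat libraries from 69.97 to 76.8%, and the control P90 libraries at 22.5 and 66.7%. At chr8:4292001-4293000 the control P7 libraries ran from 17.4 to 92.2%, and at chr2:198522001-198523000 from 22.5 to 65.9%. In these 3 windows the control P7 libraries ranged further than the difference between the group means.

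Where the high-fat libraries were lower, the control libraries were closer together. At chr5:58283001-58284000 the control P7 libraries stood at 96.6, 91.3, 79.7 and 99.1% and the high-fat libraries at 60.4, 63.5, 61 and 62.1%, without overlap. The control P90 libraries stood at 77.7 and 86.5%, above the high-fat pups and below 3 of the 4 control pups. At chr5:143068001-143069000 the high-fat libraries ran from 52.2 to 79.0% and the control P7 libraries from 81.9 to 89.1%. At chr8:128414001-128415000 the groups overlapped, with 53 to 79.4% in the high-fat and 75 to 83.4% in the control P7 libraries.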

How the data were processed

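Methylation was read by reduced representation bisulfite sequencing (Ovation kit, per the labels' protocols). The deposited files hold raw counts of methylated and unmethylated reads per CpG cytosine, without normalization; the genome is Rnor_6.0, per the submitters' processing notes. File names mention trimming, Bismark and Bowtie. Filters, versions and the tool behind the tables are not given in sources used here. Libraries were grouped by diet and age from the labels. The 10 libraries of 1 naming scheme were used and 6 of another were not used here. Numbers of libraries follow accession order.

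Reads of cytosines with at least 10 reads in all 10 libraries were summed in windows of 1000 bp with at least 3 such cytosines. A quasi-binomial logistic fit (R 4.3.3) compared 2 control P90 with 4 control P7 libraries by a two-sided F test, with the dispersion moderated by limma 3.58.1 (robust, trend in coverage and level, never below 1) and Benjamini-Hochberg adjustment at 0.05. The dispersion of windows that stood far out moved less toward the trend. The test was checked on simulated counts with few changed windows, where its share of false calls at 0.05 was above the nominal one. Adjusted p-values, very small ones included, may thus be too small. The calls at 0.05 may hold more false ones than that threshold states. Alternatives were 20 reads, an upper limit on coverage (99.9th percentile), 5 cytosines, merged strands, thinning to 10 reads, edgeR 4.0.16, limma on log2((methylated + 1)/(unmethylated + 1)), no moderation, a replicate block, a difference of 10 points, other bounds of the set and leaving out each library. Leaving out paired cytosines was added after the data were seen.

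RefSeq promoter sequences (GRCr8) were placed by the spacing of their CpGs on the same chromosome, with at least 8 CpGs and 0 unmatched or 10 and 1 unmatched, at a single place; 95.0% of candidate matches fell on the same chromosome. Windows and lists were chosen with earlier results of these data known. Windows named were, per direction of change, the 8 of lowest p, the 3 with the most CpGs, those next to each bound, the 3 with the largest and smallest spread of cytosines, the 3 with the largest diet difference each way and the longest run; promoter windows were named after their values were seen. Reads without molecular identifiers are not independent molecules. Python 3.11.15, numpy 2.4.6, scipy 1.17.1 and pandas 2.3.3 were used.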

Additional observations from a re-analysis of the deposited data

Results flagged for a closer look

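In 72 groups of 4 P7 libraries of the named windows, 5 held 1 library far from the other 3, and chance gives about 1 in 20. The window chr1:90663001-90664000, called higher at P90, stood at 77.3% in the fourth control P7 library against 72.4 to 72.9% in the others. At chr19:54108001-54109000 the first control P7 library stood at 69.3%, the others at 52.9 to 55.4%. At chr12:2601001-2602000 the third control P7 library was low, at 52.1% against 69.7 to 72.3%. Among high-fat libraries, the second stood at 55.6% in chr1:274767001-274768000 against 61.6 to 62.4%, and the third at 47.5% in chr2:198522001-198523000 against 69.5 to 72.2%.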

How the results depend on the processing

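The number of windows called for age moved with the number of reads, libraries and cytosines and with the test. Of the CpG-dense windows 190 were higher and 200 lower with at least 20 reads (1995 windows left), 120 and 166 with reads thinned to 10 per cytosine, 37 and 42 by limma on the log2 ratio, and 0 and 0 without moderation, where all 16 windows named for the smallest p missed the threshold as well, at adjusted p of 0.172 to 0.191. Over all windows, 4546 were higher and 2386 lower with at least 20 reads, of 42672 windows left. With at least 5 cytosines 4102 were higher and 2749 lower, of 42598 left. The counts under these 2 settings thus come from fewer windows. Of all 86065 windows, 2795 were higher and 1668 lower after thinning, 1732 and 825 by limma, and 0 and 0 without moderation. A replicate block was fitted on the title numbers that 2 libraries of each age share. It gave 187 higher and 183 lower of the dense windows, and 3681 and 2363 of all windows. The difference between these 2 libraries at P7 correlated with that at P90 at -0.023 over the dense windows. The title numbers are thus not shown to pair animals. Leaving out 1 library gave 157 to 303 higher and 220 to 352 lower of the dense windows and 3719 to 6611 and 2746 to 4459 of all windows, and a median difference of the dense windows from -0.27 to 0.84 points. The lowest counts of the dense windows came without a control P90 library, at 176 and 221 without the first and 157 and 220 without the second; the lone library left is then assumed to vary like the P7 libraries. With at least 20 CpGs the set held 2281 windows (188 higher), and from 65 up to 75% it held 1592 (136 higher, 170 lower). No paired cytosines, an addition made after the data were seen, left 271 higher and 328 lower, and edgeR called 521 of the windows, all of them among the 620 of the logistic fit. The 16 windows with the smallest p kept their call and direction under the other alternatives run that could test them, 14 of them at 20 reads and 15 at 5 cytosines. The 2 P90 libraries limit how firmly any single window can be read.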
